A study of Mus musculus with 3 samples.

Results

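The 10 genes described here code for receptors, ligands and targets of the Notch pathway: the receptors *Notch1*, *Notch2*, *Notch3* and *Notch4*, the ligands *Jag1*, *Dll1* and *Dll4*, and the target genes *Hes1*, *Hey1* and *Heyl*. They were chosen by name, with earlier results of these data known, and all 10 were found by Ensembl identifier among the 32285 genes of the count files. Their unique molecular identifiers (UMIs, each standing for 1 captured mRNA molecule) were counted in single cells from skin wounds of C57BL/6J mice. Wounds were taken 3, 7 or 14 days after injury. No transgene, knockout or drug was named for these mice, the wounded mice were young adult males going by the age range in the study's methods, and the cells were dissociated from whole wound tissue without sorting. Each day was 1 library, made from pooled wounds, and unwounded skin was not analysed here. There was therefore no replicate check and no p-value: every interval below is a 95% interval for counting error only (exact Poisson for a level, exact conditional binomial for a ratio), and a ratio compares 2 libraries, with day and library not to be told apart.

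Notch is a signal between touching cells. A ligand of the Jagged or Delta-like family on one cell pulls on the receptor of its neighbour, the receptor is cut inside the membrane by gamma-secretase, and the freed intracellular part enters the nucleus and joins RBPJ to switch on targets such as the *Hes* and *Hey* genes, which code for transcriptional repressors. In vessels the pathway is known for setting which endothelial cells sprout and for keeping mural cells mature, and in the epidermis for moving basal cells into differentiation.

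The deposited tables hold 5158, 22924 and 16611 cell barcodes for Days 3, 7 and 14, with 38133650, 120940799 and 112713257 UMIs. After filters and removal of called doublets, 4360, 19590 and 13510 cells were kept. Between 19 and 111 barcodes were shared by a pair of libraries. The cells fell into 30 clusters, of which 7 were left unnamed, and the others were grouped into classes called "-like" by their markers. Endothelial-like cells numbered 13, 235 and 240 on Days 3, 7 and 14, and pericyte-like cells 10, 186 and 427, so levels in the vessel wall on Day 3 rest on very few cells. Levels are given as counts per 1000000 UMIs of the class in that library (CPM). Reads were captured at the 3′ end of each mRNA, and levels are compared here between cells for 1 gene at a time and not between genes.

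The genome positions of the members are those of the GRCm38 annotation (GENCODE vM21). *Notch1* lies at chr2:26457903-26516663 (minus strand), *Notch2* at chr3:98013527-98150361 (plus), *Notch3* at chr17:32120820-32166852 (minus) and *Notch4* at chr17:34564268-34588503 (plus). *Jag1* lies at chr2:137081456-137116644 (minus), *Dll1* at chr17:15367354-15376872 (minus) and *Dll4* at chr2:119325784-119335962 (plus). *Hes1* lies at chr16:30064384-30067796 (plus), *Hey1* at chr3:8663359-8667256 (minus) and *Heyl* at chr4:123233556-123249875 (plus). Other annotated genes overlap *Notch1*, *Notch2*, *Notch3*, *Notch4*, *Dll1* and *Dll4*. Those on the same strand as the member are *Gm42819* and *Gm42820*, which overlap *Notch2*, and *Mir6996*, which overlaps *Notch1*, so counts of reads in the shared bases are uncertain.

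Of the members, 7 had an entry among the promoter sequences of RefSeq (GRCm38.p6), and *Hes1*, *Hey1* and *Heyl* had none. Up to 250 bases before the RefSeq start, cut back to lie outside the GENCODE gene, are printed for *Notch3*, *Notch4* and *Dll4*, because a large share of the UMIs of each of these genes came from a single class of the vessel wall, a mural class for the first and an endothelial class for the other two. Capitals mark each GGAAG or CTTCC, the core bound by ETS factors, a family with several endothelial members, read on both strands. The 3 regions are chr17:32166891-32167140 (250 bases, minus strand), chr17:34564045-34564267 (223 bases, plus strand) and chr2:119325534-119325783 (250 bases, plus strand).
Notch3: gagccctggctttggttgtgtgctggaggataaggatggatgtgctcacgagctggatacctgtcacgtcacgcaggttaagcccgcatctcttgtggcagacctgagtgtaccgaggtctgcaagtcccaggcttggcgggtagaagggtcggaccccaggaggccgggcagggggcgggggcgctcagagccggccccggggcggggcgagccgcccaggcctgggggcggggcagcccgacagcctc
Notch4: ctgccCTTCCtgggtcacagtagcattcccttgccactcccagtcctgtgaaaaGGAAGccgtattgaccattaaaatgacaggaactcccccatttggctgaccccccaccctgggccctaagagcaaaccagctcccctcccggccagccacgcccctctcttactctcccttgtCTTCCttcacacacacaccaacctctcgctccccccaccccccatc
Dll4: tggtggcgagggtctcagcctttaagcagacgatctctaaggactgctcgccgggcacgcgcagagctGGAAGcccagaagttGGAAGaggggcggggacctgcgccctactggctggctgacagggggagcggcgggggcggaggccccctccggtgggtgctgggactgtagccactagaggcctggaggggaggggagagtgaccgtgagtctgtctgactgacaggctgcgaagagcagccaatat
The ETS core was found 3 times in the *Notch4* sequence, 2 times in that of *Dll4* and not in that of *Notch3*. Over all 8 entries of members (*Dll1* has 2) it was in 4, the others being that of *Notch2* and 1 of *Dll1*. That *Dll1* entry and the entry of *Notch1* lie inside their GENCODE genes and were not cut back. The ETS core occurs in 64.1% of 32851 promoters at 250 bases and in 59.1% at 223 bases. The core bound by RBPJ, searched as TGGGAA on both strands, can share its letters GGAA with an ETS core. It was in 0 of the 8 entries and occurs in 21.6% of all promoters at 250 bases and in 11.8% at 126 bases, the length of the *Jag1* entry. These are matches of letters in short windows and not binding sites.

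Each member had its own distribution over the classes. In the Day 7 library, pericyte-like cells were 0.949% of cells and gave 81.8% of the UMIs of *Notch3*, and endothelial-like cells were 1.20% of cells and gave 68.5% of those of *Dll4* and 61.8% of those of *Notch4*. Fibroblast-like cells, which gave 57.6% of all UMIs, gave 86.6% of those of *Hes1* and 63.9% of those of *Jag1*. Macrophage-like cells, with 26.9% of all UMIs, gave 56.7% of those of *Notch1* and 43.7% of those of *Notch2*. On Day 14 the mesenchymal-like cells, 5.40% of cells, held 36.8% of the UMIs of *Dll1*.

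**Figure D1:**
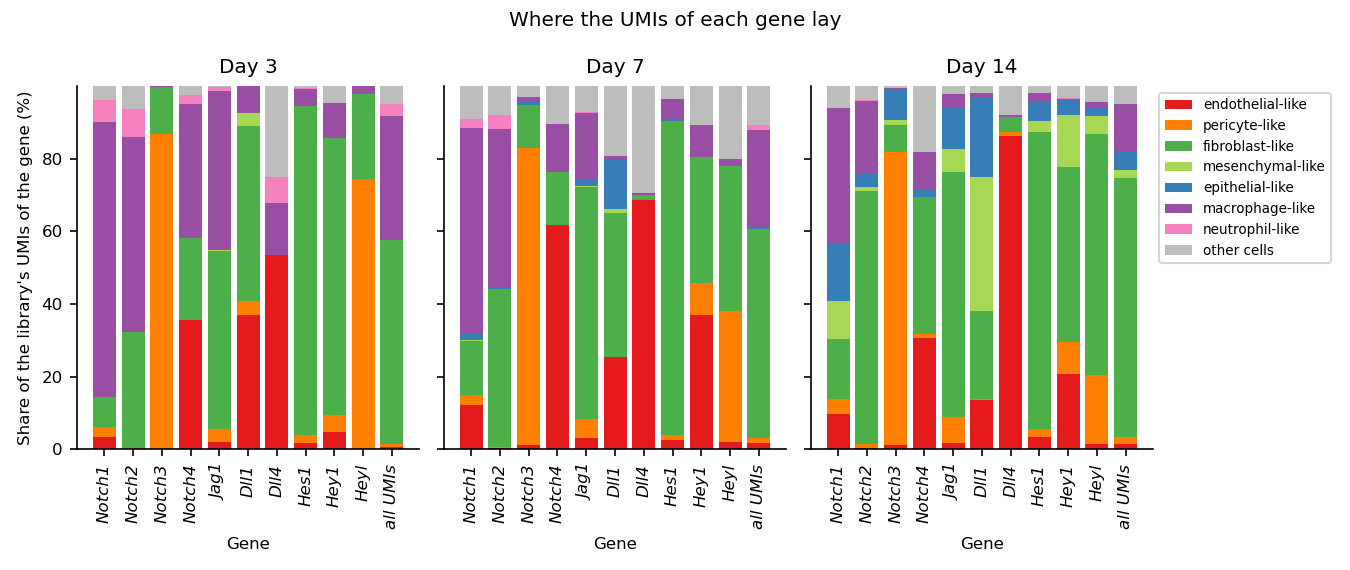
Share of the UMIs of each gene (vertical axis, %) that lay in each cell class (colours), in the Day 3, Day 7 and Day 14 libraries; the last bar of each panel gives the share of all UMIs. *Notch3* bars are filled mainly by pericyte-like cells (81.8% on Day 7), *Dll4* bars by endothelial-like cells (68.5% on Day 7) and *Hes1* bars by fibroblast-like cells (86.6% on Day 7).

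**Figure D2:**
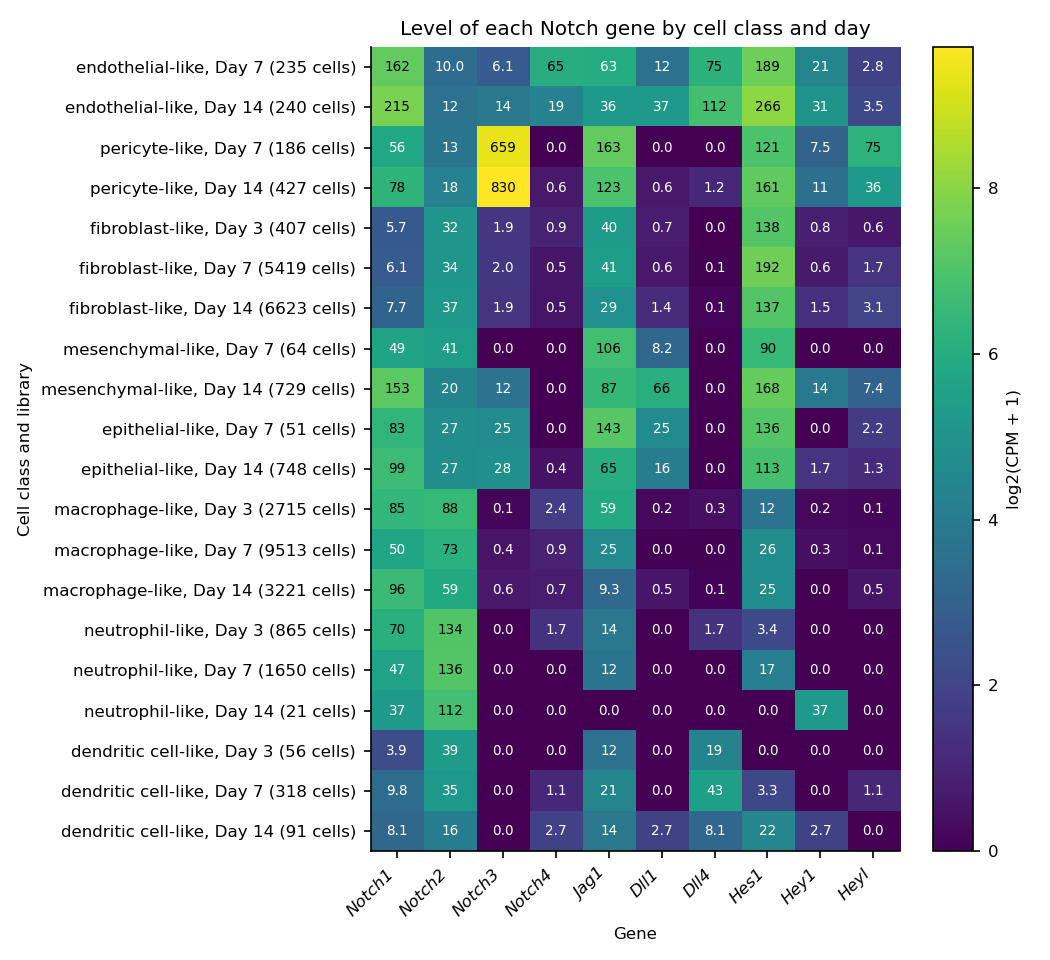
Level of each gene (columns) in each cell class and library with at least 20 cells (rows), printed as CPM and coloured by log2(CPM + 1). *Notch3* stands at 659 and 830 CPM in pericyte-like cells on Days 7 and 14 and at 28.1 CPM or less in the other classes shown; the 37 CPM of *Hey1* in neutrophil-like cells of Day 14 is 1 UMI.

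A difference of at least 2-fold between libraries was counted as called, over genes with at least 20 UMIs in the pair of libraries. In endothelial-like cells, 2 of the 9 members tested were higher on Day 14 than on Day 7 (*Notch3* and *Dll1*), where 5.84% of all genes tested were, and 1 was lower (*Notch4*), where 11.4% of all genes were. In pericyte-like cells, 0 of 7 were higher, where 7.42% of all genes were, and 1 was lower (*Heyl*), where 14.6% were. In macrophage-like cells, 0 of 5 were higher on Day 14 than on Day 7 against 5.61% of all genes, and 1 was lower (*Jag1*) against 6.48%. Between Days 3 and 7 in those cells, 1 of 5 was higher on Day 7 (*Hes1*) against 12.9% of all genes, and 2 were lower (*Notch4* and *Jag1*) against 4.81%. The same 3 genes were called between Days 3 and 14, where 14.2% of all genes were higher and 12.6% lower. In fibroblast-like cells, 2 of 9 were higher on Day 14 than on Day 7 (*Dll1* and *Hey1*) against 7.6% of all genes, 1 of 9 was higher on Day 7 than on Day 3 (*Heyl*) against 12%, and 0 were lower in either pair, where 9.85% and 10.7% of all genes were. Between Days 3 and 14, 2 of 9 were higher (*Dll1* and *Heyl*) against 16.3%, and 0 were lower against 21.4%. In epithelial-like cells, 0 of 6 were higher on Day 14 than on Day 7 against 11.2%, and 1 was lower (*Jag1*) against 11.7%. In dendritic cell-like cells 3 members were tested: *Dll4* was higher on Day 7 than on Day 3 (8.92% of all genes were, and 10.4% were lower), and *Notch2* and *Dll4* were lower on Day 14 than on Day 7 (15.6% of all genes were, and 6.87% were higher). In neutrophil-like cells 1 of 4 was higher on Day 7 than on Day 3 (*Hes1*) against 19.2% of all genes, and 0 were lower against 7.8%. The 21 neutrophil-like cells of Day 14 held 0 UMIs of *Hes1*, a floor of 112 CPM that lies above the other days' levels, so no difference from that library is read. With 3 to 9 members tested in each comparison, 1 member more or less moves a share far, and nothing is read from these counts about the pathway as a whole. Between Days 7 and 14 the median log2 ratio of all genes was -0.18 in endothelial-like, -0.21 in pericyte-like, -0.16 in fibroblast-like and -0.11 in macrophage-like cells.

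Of the ligands, *Dll4*, which codes for the Delta-like ligand that restrains sprouting in neighbouring endothelial cells, was found in endothelial-like cells and in 2 other small groups. Its level in endothelial-like cells was 73.2 CPM in the Day 3 library (15 UMIs in 13 cells), 74.9 in that of Day 7 (135 UMIs, interval 62.8 to 88.6) and 112 in that of Day 14 (162 UMIs, 95.5 to 131). The Day 14 level was above that of Day 7 without overlap of intervals, with a log2 ratio of 0.58 (0.24 to 0.92), while the interval of Day 3 (40.96 to 121) overlaps both. Within endothelial sub-cluster 0, described below, the levels were 150 CPM (100 UMIs) on Day 7 and 182 (80 UMIs) on Day 14, with overlapping intervals. Within Day 14 the level was 414-fold that of all other cells, 112 against 0.27 CPM. The share of endothelial-like cells with a *Dll4* UMI was 28.5% and 29.2% on Days 7 and 14, against 0.0105% and 0.0310% of macrophage-like cells. Those shares came from median depths of 6127 and 3850 UMIs in endothelial-like and 2539 and 3534 in macrophage-like cells. After thinning each cell to 1000 UMIs, which left out 11 and 31 endothelial-like cells, the shares were 7.14% and 7.66%, against 0 of 8667 macrophage-like cells and 0 of 3001. At 3 cells of the total, the limit taken for a count of 0, shares of up to 0.0346% and 0.09997% are possible, bounds that hold for cells with a UMI at this depth and not for cells that express the gene.

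The other cells with *Dll4* were dendritic cell-like (led by *Ccl22*, *Ccr7* and *Il4i1*) and a small unnamed cluster led by *Siglech*, *Ccr9* and *Klk1* (cluster 25). In the dendritic cell-like class *Dll4* had 5 UMIs on Day 3 (19.4 CPM), 40 on Day 7 (43.5 CPM) and 3 on Day 14 (8.15 CPM). The Day 7 level was 27.5-fold that of the rest of its library. The log2 ratio of Day 14 over Day 7 was -2.42 (-4.75 to -0.76), and that of Day 7 over Day 3 was 1.17 with an interval that holds 0 (-0.17 to 2.87). Cluster 25 held 56.7 CPM on Day 7 (15 UMIs, 98 cells) and 56.0 on Day 14 (9 UMIs, 33 cells), levels whose intervals overlap that of endothelial-like cells on Day 7. Of the 10 endothelial markers, 2 were at 0 in the dendritic cell-like class on Day 7, and their summed level was 31.5 CPM there, against 5504 CPM in endothelial-like cells. In cluster 25, which was left unnamed because endothelial markers came second to dendritic cell markers in it, they summed to 284 and 112 CPM on Days 7 and 14, with 4 and 6 of the 10 at 0. Their part in its *Dll4* was not tested.

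*Dll1*, which codes for a second Delta-like ligand, had its higher levels in endothelial-like, epithelial-like and mesenchymal-like cells, although fibroblast-like cells, at a low level each, held 33 of its 83 UMIs on Day 7 and 95 of 391 on Day 14. In endothelial-like cells its 10 UMIs of Day 3 (13 cells) gave 48.8 CPM, its 21 UMIs of Day 7 gave 11.6 CPM (7.21 to 17.8) and its 53 UMIs of Day 14 gave 36.7 CPM (27.5 to 48.0). Day 14 was 3.15-fold above Day 7 (log2 ratio 1.66, 0.90 to 2.46). Of the 10 UMIs of Day 3, 6 came from 1 cell, and 4 from 5 cells of sub-cluster 0, whose 23.6 CPM (6.43 to 60.5) overlaps the level of Day 7. The mesenchymal-like cells were led by *Slc26a7*, *Wif1*, *Pappa2* and *Lef1* and named by a marker list taken from the study's own clusters of these libraries. They held *Dll1* at 66.4 CPM on Day 14 (144 UMIs in 729 cells), the highest level of the gene in any class with at least 20 cells, against 8.17 CPM (1 UMI in 64 cells) on Day 7. In order of level on Day 14 the mesenchymal-like cells (56.0 to 78.1) came before the endothelial-like (27.5 to 48.0) and the epithelial-like cells (16.3 CPM, 13.0 to 20.1), with no overlap between neighbours. Over all cells kept, *Dll1* stood at 0.760, 0.828 and 4.01 CPM on Days 3, 7 and 14, while mesenchymal-like cells numbered 4, 64 and 729 and epithelial-like cells 1, 51 and 748.

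*Jag1*, which codes for the Jagged ligand, was found in most classes, and its level in macrophage-like cells was lower in each later library. In those cells 719 UMIs on Day 3 gave 59.2 CPM (54.9 to 63.7), 668 on Day 7 gave 24.8 CPM and 116 on Day 14 gave 9.34 CPM. No 2 of these intervals overlap, and Day 14 was 6.33-fold below Day 3 (log2 ratio -2.66, -2.96 to -2.38). The share of macrophage-like cells with a *Jag1* UMI was 14.99%, 5.64% and 3.20%, and after thinning to 1000 UMIs 6.46%, 2.52% and 1.10%. In neutrophil-like cells *Jag1* was 13.6 and 12.1 CPM on Days 3 and 7.

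The clusters inside the macrophage-like class differed in *Jag1*, and their numbers of cells differed between libraries. Cluster 2, led by *Atp6v0d2*, *Rnf128*, *Mmp12* and *Cd36*, held 156 CPM in 174 cells of Day 3, 42.5 in 2853 cells of Day 7 and 30.6 in 60 cells of Day 14. Cluster 3, led by *Chil3*, *Arg1* and *Sirpb1c*, made up 2044 of the 2715 macrophage-like cells of Day 3 and held 59.6 CPM there and 50.5 on Day 7. Clusters 4 and 6 were lower on every day, with 11.8 and 15.6 CPM on Day 3, 7.13 and 11.05 on Day 7, and 2.92 and 3.74 on Day 14. Cluster 5, led by *Il10*, *Slamf7* and *Ccl8*, which held 1360 of the 3221 macrophage-like cells of Day 14, stood at 12.1, 20.6 and 13.9 CPM. The Day 14 level lay below that of Day 3 without overlap of intervals within clusters 2 and 6, while within clusters 4, 5 and 11 the intervals overlapped (4, 2 and 4 UMIs on Day 3).

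**Figure D3:**
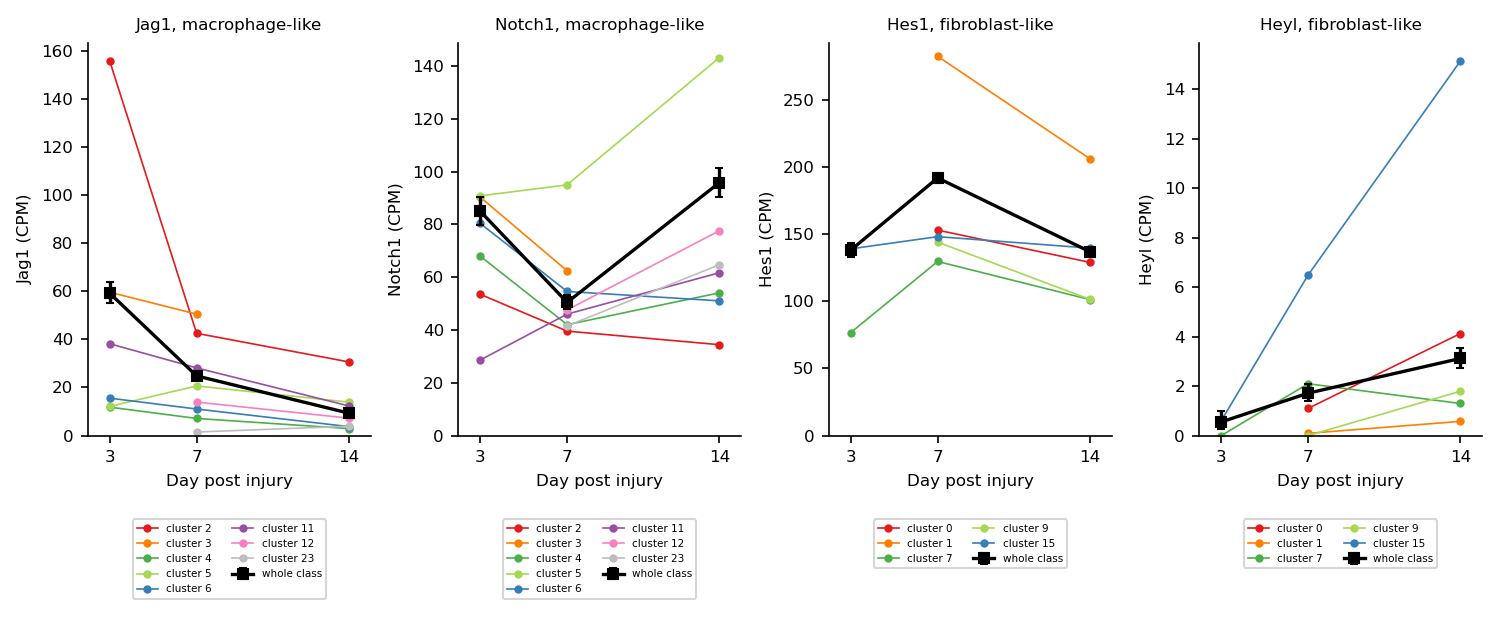
Level in CPM (vertical axes) against day post injury (horizontal axes) of *Jag1* and *Notch1* in macrophage-like cells and of *Hes1* and *Heyl* in fibroblast-like cells; thin lines are clusters with at least 20 cells in that library, and black squares the whole class with 95% intervals for counting error. *Jag1* of the whole class is at 59.2 CPM on Day 3 and 9.34 on Day 14, *Notch1* is lowest on Day 7 (50.5 CPM), and *Heyl* is highest in cluster 15 on Day 14 (15.1 CPM).

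*Jag1* was also found in the structural classes. In pericyte-like cells the levels of the 3 libraries were 201 (10 cells), 163 and 123 CPM, with a log2 ratio of Day 14 over Day 7 of -0.41 (-0.69 to -0.12). In endothelial-like cells they were 161 (13 cells), 62.7 and 36.0 CPM, with a log2 ratio of -0.80 (-1.30 to -0.31). In epithelial-like cells it was 143 CPM on Day 7 (64 UMIs in 51 cells) and 64.5 on Day 14, with a log2 ratio of -1.15 (-1.54 to -0.74) that became -0.51 when each cell was given the same weight. Of the 64 UMIs of Day 7, 37 lay in the 15 cells of sub-cluster 6, with the markers *Krt6a*, *Krt16* and *Krt17* and led by *Mmp9*, *Mmp13* and *S100a8*. Its other 7 leading genes were *Cd74*, *Cybb*, *S100a9*, *H2-Eb1*, *Cd52*, *H2-Aa* and *Mpeg1*, most of them known from myeloid or antigen-presenting cells, and the part of RNA of such cells in its *Jag1* was not tested. Without that sub-cluster the levels were 85.5 and 64.6 CPM, with a log2 ratio that no longer passed 2-fold and whose interval holds 0 (-0.40, -0.97 to 0.22). Fibroblast-like cells held 40.1, 40.8 and 29.1 CPM. In order on Day 14, the pericyte-like cells (107 to 141) were above the mesenchymal-like cells (87.1 CPM, 75.1 to 100.4), these above the epithelial-like cells (57.8 to 71.8), and the endothelial-like cells (26.9 to 47.2) overlapped the fibroblast-like cells (27.9 to 30.4).

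**Figure D4:**
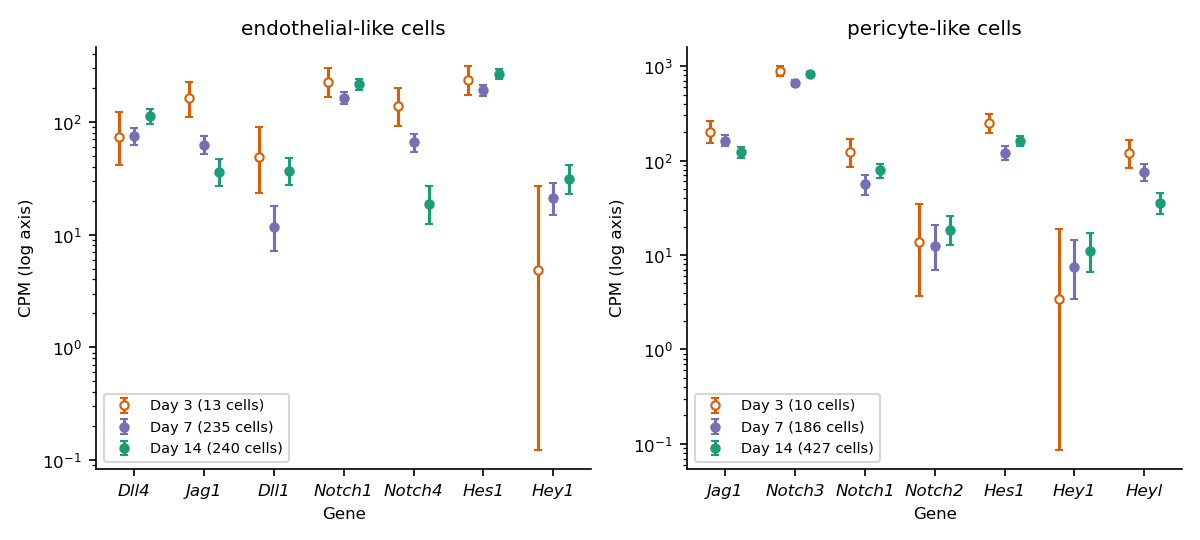
Level in CPM (log axis) of the members in endothelial-like cells (left) and pericyte-like cells (right) on Days 3, 7 and 14, with 95% intervals for counting error; open points mark libraries with under 20 cells of the class. In endothelial-like cells *Notch4* is at 18.7 CPM on Day 14 against 65.4 on Day 7, while *Dll4* is at 112 against 74.9; in pericyte-like cells *Heyl* is at 35.8 against 75.2.

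Of the receptors, *Notch3*, which codes for the receptor of mural cells, lay mostly in 1 class. Pericyte-like cells held it at 883 CPM in the Day 3 library (259 UMIs in 10 cells), 659 in that of Day 7 (789 UMIs, 614 to 707) and 830 in that of Day 14 (1438 UMIs, 787 to 874). The Day 7 level lay below that of Day 14 without overlap of intervals (log2 ratio 0.33, 0.20 to 0.46). Of the 259 UMIs of Day 3, 146 lay in 4 cells of sub-cluster 4 (1495 CPM), and the other 6 cells held 578 CPM (476 to 695), so the place of Day 3 in the order rests on those 4 cells. Within Day 7 and Day 14 the level was 373-fold and 233-fold that of all other cells, placing *Notch3* at rank 19 of 15475 and rank 22 of 15968 genes by that ratio. The class itself was formed without the members: neither its clustering nor its marker list used a member, although *Notch3* was afterwards among the 10 leading genes of its cluster. A *Notch3* UMI was found in 89.2% and 85.2% of pericyte-like cells on Days 7 and 14 (median depths 5621 and 3927 UMIs), against 0.116% and 0.186% of macrophage-like cells. After thinning to 1000 UMIs, which left out 3 and 33 pericyte-like cells, the shares were 43.2% (35.9 to 50.7%) and 53.3% (48.2 to 58.3%), against 0.0346% and 0.0666%. The intervals of the 2 days overlap both before and after thinning, so no order of the days is read from these shares.

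The pericyte-like cells split into 5 sub-clusters, none of which met the marker rule for a name. Sub-cluster 2 had 129 cells led by *Rergl*, *Susd5* and *9530034E10Rik*, with the smooth muscle markers *Myh11* and *Mustn1*. It held *Notch3* at 1166 CPM over all libraries, and the other 4 held 670 to 734 CPM. Sub-cluster 2 had 16 cells on Day 7 and 113 on Day 14, and without it *Notch3* in the class was 632 and 708 CPM on those days, a log2 ratio of 0.16 (0.02 to 0.31) in place of 0.33. Fibroblast markers were also present in the class, at a summed 18248 CPM on Day 7 and 12577 CPM on Day 14, against 119468 and 142509 CPM in fibroblast-like cells. *Notch3* in fibroblast-like cells was 1.91, 1.98 and 1.85 CPM.

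A second site of *Notch3* was the epidermis. Epithelial-like cells held 24.5 CPM on Day 7 (11 UMIs) and 28.1 on Day 14 (147 UMIs). On Day 14 a suprabasal-like sub-cluster (sub-cluster 0, 226 cells of that day, with *Krt1*, *Krt10*, *Krtdap* and *Dsg1a*) held 50.1 CPM (76 UMIs), and the basal-like sub-cluster 1 (154 cells, with all 7 basal markers such as *Krt5* and *Krt14*) held 1.49 CPM (1 UMI). The log2 ratio to the other epithelial-like cells of that library was 1.39 (0.90 to 1.87) in the suprabasal-like and -4.43 (-9.74 to -1.93) in the basal-like one. The other sub-clusters of these names did not share that layout beyond counting error: suprabasal-like sub-cluster 5 held *Notch3* at 23.7 CPM (log2 ratio -0.27, -1.26 to 0.58) and basal-like sub-cluster 7, of 25 cells, at 11.1 CPM (-1.38, -3.68 to 0.19). *Dll1* had the opposite order in sub-clusters 0 and 1 on Day 14, with 59.6 CPM (40 UMIs) in basal-like sub-cluster 1 and 4.61 CPM (7 UMIs) in suprabasal-like sub-cluster 0. Suprabasal-like sub-cluster 5 held 1.97 CPM (1 UMI), while basal-like sub-cluster 7, at 22.3 CPM (6 UMIs), had a log2 ratio to the other epithelial-like cells whose interval holds 0 (0.48, -1.01 to 1.67), as had the unnamed sub-cluster 2 at 23.6 CPM (0.65, -0.19 to 1.42). *Notch2* was lower in basal-like sub-cluster 1 (7.45 CPM) than in suprabasal-like sub-cluster 5 (47.3 CPM, led by *Lce1a2*, *Lce1b* and other cornified envelope genes). *Notch1* was 139 CPM in the former and 43.4 in the latter. Suprabasal-like sub-cluster 0 lay between them, at 25.05 CPM for *Notch2* and 86.3 for *Notch1*, with log2 ratios to the other epithelial-like cells whose intervals hold 0 (-0.14 and -0.27). A high *Notch2* level was not particular to sub-cluster 5. The unnamed sub-cluster 4 (68 cells on Day 14), led by *Pcolce2*, *Ddah1*, *Lox*, *Ccn3* and *Dcn*, held it at 49.8 CPM (39 UMIs, log2 ratio 1.13, 0.56 to 1.68). Sub-cluster 4 is also among the other epithelial-like cells of the ratios above. Sub-clusters were described after grouping the same cells, so these are descriptions. Fibroblast markers summed to 20060 and 16126 CPM in epithelial-like cells on Days 7 and 14, and their part in these levels was not tested.

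Among the other epithelial groups, sub-cluster 3, led by *Nppc*, *Slc7a8*, *Lhx2*, *Shisa2* and *Gnmt*, held 94 cells on Day 14. It had *Notch1* at 221 CPM, *Jag1* at 226 and *Hes1* at 202, against 88.2, 50.2 and 105 CPM in the other epithelial-like cells of that library. The log2 ratio was 1.32 (0.99 to 1.65) for *Notch1*, 2.17 (1.81 to 2.51) for *Jag1* and 0.94 (0.59 to 1.27) for *Hes1*. Sub-cluster 2, led by *Elovl3*, *Scd3* and *Fa2h*, genes of sebaceous lipid synthesis, held *Hes1* at 40.7 CPM on that day. A *Dll4* UMI was found in 0 of 748 epithelial-like cells of Day 14, a count that by the same limit of 3 cells leaves possible a share of up to 0.401% of cells with a UMI at this depth and sets no limit on cells that express the gene.

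*Notch4*, which codes for a receptor largely restricted to endothelium, was lower in each later library in endothelial-like cells, where *Dll4* was higher on Day 14 than on Day 7. Its 28 UMIs of Day 3 (13 cells) gave 137 CPM, its 118 UMIs of Day 7 gave 65.4 CPM (54.2 to 78.4) and its 27 UMIs of Day 14 gave 18.7 CPM (12.3 to 27.2). The 3 intervals do not overlap each other, but 25 of the 28 UMIs of Day 3 lay in 5 cells of sub-cluster 0, where the levels of Day 3 (148 CPM, 95.5 to 218) and Day 7 (117 CPM, 92.3 to 146) overlap. For the class, Day 14 was 3.501-fold below Day 7 (log2 ratio -1.81, -2.47 to -1.19). With every cell given the same weight the log2 ratio was -2.14. The share of endothelial-like cells with a *Notch4* UMI was 31.1% on Day 7 and 9.17% on Day 14, at median depths of 6127 and 3850 UMIs, against 0.263% and 0.279% of macrophage-like cells. After thinning to 1000 UMIs it was 4.02% (9 cells, 1.85 to 7.49%) and 3.35% (7 cells, 1.36 to 6.78%), and these intervals overlap. The summed level of the 10 endothelial markers was 5504 CPM on Day 7 and 4553 on Day 14, and that of the 8 fibroblast markers in the same cells was 5594 and 12880 CPM. Macrophage-like cells held *Notch4* at 2.39 CPM on Day 3 (29 UMIs), 0.929 on Day 7 (25 UMIs) and 0.725 on Day 14 (9 UMIs), with a log2 ratio of Day 7 over Day 3 of -1.36 (-2.19 to -0.54).

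The 2 endothelial-like clusters were a main one (cluster 22, led by *Selp*, *Depp1* and *Aplnr*) and a lymphatic one (cluster 26, led by *Ccl21a*, *Mmrn1*, *Nts* and *Prox1*). In the main one *Notch4* was 82.3 CPM on Day 7 and 27.6 on Day 14, and *Dll4* 94.3 and 124. In the lymphatic one *Notch4* was 17.1 and 1.99 CPM, and *Dll4* 19.3 and 89.4. The direction between days was the same in both, but the lymphatic cells fell into different sub-clusters in the 2 libraries (sub-cluster 5 with 29 cells on Day 7 and 1 on Day 14, sub-cluster 3 with 15 and 42). The Day 7 level of *Notch4* in sub-cluster 5 was 19.3 CPM (7 UMIs), and sub-cluster 3 held 0 UMIs on Day 7 and 1 on Day 14. *Dll4* was 13.8 CPM in sub-cluster 5 on Day 7 (5 UMIs), and 63.6 (3 UMIs) and 99.1 CPM in sub-cluster 3 on Days 7 and 14. Sub-cluster 0 was led by *Chga*, *Esm1*, *Sema3g*, *Klhl8* and *Prnd* and carried both capillary markers (*Rgcc*, *Cd36*, *Gpihbp1*) and sprouting markers. It stayed unnamed, because its 10 leading genes held the pericyte marker *Rgs5* and no capillary or general endothelial marker. It held *Notch4* at 117 CPM on Day 7 and 45.6 on Day 14, and *Dll4* at 150 and 182, the last 2 with overlapping intervals. Within Day 7 these were above the other endothelial-like cells by log2 ratios of 1.73 (1.16 to 2.32) for *Notch4* and 2.28 (1.71 to 2.88) for *Dll4*. Venous-like sub-cluster 1 (with *Ackr1*, *Selp* and *Sele*) held *Notch4* at 22.8 and 11.8 CPM and *Dll4* at 25.4 and 78.9 on the same days. The class levels also hold unnamed sub-cluster 4 (35 cells, led by *Mfap4*, *Entpd2*, *Cilp*, *Igfbp6* and *Mfap5*). They hold unnamed sub-cluster 6 too (21 cells, led by *Retnla*, *Aif1*, *Adssl1*, *Ppfia4* and *Arg1*). Over all libraries these 2 held *Notch4* at 51.9 and 39.7 CPM and *Dll4* at 62.3 and 46.3. The part of RNA of other classes in them was not tested. The pericyte marker *Rgs5* was among the 10 leading genes of sub-cluster 0, and 18 of the 20 *Notch3* UMIs of endothelial-like cells on Day 14 lay in it. The *Notch3* level of the whole class was 6.10 CPM on Day 7 and 13.8 on Day 14 (log2 ratio 1.18, 0.05 to 2.39), and the source of these UMIs was not tested.

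*Notch1*, which codes for a receptor known in epidermis, endothelium and blood cells, had levels of 224 (13 cells), 162 (144 to 182) and 215 CPM (191 to 240) in endothelial-like cells of the 3 libraries. Day 14 was above Day 7 by a log2 ratio of 0.40 (0.17 to 0.64). Within endothelial sub-cluster 0 the levels were 220 CPM on Day 7 and 237 on Day 14 (147 and 104 UMIs), with overlapping intervals. Venous-like sub-cluster 1 held 157 and 272 CPM on the same days (62 and 69 UMIs). The lymphatic-like cells lay mostly in different sub-clusters, with 102 CPM in sub-cluster 5 on Day 7 and 230 in sub-cluster 3 on Day 14. The mesenchymal-like cells held 153 CPM on Day 14 (331 UMIs) and 49.0 on Day 7 (6 UMIs, log2 ratio 1.64, 0.50 to 3.09). Of the 7 members tested in that class, *Notch1* and *Dll1* (1 UMI on Day 7, log2 ratio 3.02, 0.52 to 8.34) were called higher on Day 14, and *Notch2* lower. *Notch3* and *Hey1* had 0 UMIs on Day 7, a floor of 24.5 CPM that lies above their Day 14 levels of 12.0 and 14.3 CPM, so no difference is read for them. Of all genes, 21.5% were higher, genes at 0 on Day 7 included, and 8.46% lower, and nothing is read from the members' counts beside them.

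In macrophage-like cells *Notch1* was between 79.9 and 90.4 CPM in the Day 3 library (1033 UMIs), 50.5 in that of Day 7 and 95.8 in that of Day 14 (90.5 to 101). Day 7 was the low point, with a log2 ratio of Day 14 over Day 7 of 0.92 (0.81 to 1.04), and the shares of cells with a UMI after thinning to 1000 UMIs were also lowest on Day 7 (9.23%, 5.18% and 8.90%). Cluster 5 was the highest macrophage-like cluster on Day 14 at 143 CPM and on Day 7 at 95.01, and on Day 3 it stood at 90.8 CPM, level with cluster 3 at 90.4. It made up 873 of 9513 macrophage-like cells on Day 7 and 1360 of 3221 on Day 14. The Day 14 level was above that of Day 7 without overlap of intervals within cluster 5 and within cluster 12 (77.6 against 47.6 CPM). The intervals overlapped within cluster 4 (54.1 against 42.0 CPM), cluster 11 (61.7 against 46.0), cluster 23 (64.7 against 41.6), cluster 2 (34.5 against 39.6) and cluster 6 (51.1 against 54.6). In fibroblast-like cells *Notch1* was 5.67, 6.14 and 7.67 CPM.

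*Notch2*, which codes for a receptor known in the blood lineages, had its highest level in neutrophil-like cells, at 134 CPM on Day 3 (158 UMIs) and 136 on Day 7 (179 UMIs). These 2 values could not be told apart (log2 ratio 0.02, -0.30 to 0.34), and the 112 CPM of Day 14 was 3 UMIs. Macrophage-like cells held 88.4, 72.8 and 58.9 CPM, lower in each later library, with a log2 ratio of Day 14 over Day 3 of -0.59 (-0.72 to -0.45). Fibroblast-like cells held 32.3, 33.6 and 36.9 CPM, and endothelial-like cells 9.98 on Day 7 and 11.8 on Day 14. In dendritic cell-like cells *Notch2* was 34.8 CPM on Day 7 (32 UMIs) and 16.3 on Day 14 (6 UMIs), with a log2 ratio of -1.09 whose interval holds 0 (-2.64 to 0.18).

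Of the targets, *Heyl*, which codes for a repressor known downstream of *Notch3* in mural cells, was highest in pericyte-like cells and lower on Day 14 than on Day 7, where *Notch3* was higher. Its level there was 119 CPM in the Day 3 library (35 UMIs in 10 cells, 83.1 to 166), 75.2 in that of Day 7 (90 UMIs, 60.5 to 92.5) and 35.8 in that of Day 14 (62 UMIs, 27.4 to 45.9). The first 2 intervals overlap and that of Day 14 lies below both, with Day 14 2.10-fold below Day 7 (log2 ratio -1.07, -1.56 to -0.59). A *Heyl* UMI was found in 28.5% and 12.6% of pericyte-like cells on Days 7 and 14, and after thinning to 1000 UMIs in 5.46% (10 cells) and 2.79% (11 cells), with overlapping intervals. The macrophage-like shares were 0.0420% and 0.186% unthinned. Sub-cluster 1, led by *Spp1*, *Ptprn*, *F13a1*, *Mcm2* and *Plek*, held *Heyl* at 82.1 CPM on Day 7 (66 UMIs in 131 cells) and 88.6 on Day 14 (16 UMIs in 62 cells). Sub-cluster 0, led by *Ccl2*, *Ccl11* and *Gbp5*, which had 16 cells on Day 7 and 195 on Day 14, held it at 25.1 CPM on Day 14. Within sub-cluster 1 the level was thus not lower on Day 14, and the 2 sub-clusters held different shares of the class in the 2 libraries. Sub-cluster 4 (40 cells, led by the cell division genes *Aspm*, *Ccnb1* and *Nusap1*) held 111 CPM over all libraries, and within it *Heyl* was 75.2 CPM on Day 7 (16 UMIs in 19 cells) and 22.9 on Day 14 (3 UMIs in 17 cells), with overlapping intervals. Of the 35 UMIs of Day 3, 30 lay in 4 cells of sub-cluster 4. On Days 7 and 14 the intervals of its level and of that of sub-cluster 1 overlapped. The log2 ratio of Day 14 over Day 7 for the class was -1.03 (-1.55 to -0.52) without sub-cluster 4.

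*Heyl* in fibroblast-like cells was low and higher in each later library, with 11, 99 and 217 UMIs giving 0.552, 1.72 and 3.12 CPM. Day 14 was 5.65-fold above Day 3 (log2 ratio 2.499, 1.63 to 3.52). In macrophage-like cells, read as background, *Heyl* stood at 0.0823, 0.149 and 0.483 CPM. Fibroblast-like cluster 15, led by *Car4*, *Cxcl5*, *Erfe*, *Ube2c* and *Nos2*, held 0.599, 6.49 and 15.1 CPM on the 3 days, from 362, 446 and 45 cells, with *Notch3* at 1.96, 6.49 and 11.8 CPM. The unnamed cluster 20, led by *Col7a1*, *Tnn*, *Prss35*, *Crabp1* and *Stra6*, held *Heyl* at 8.82 CPM on Day 7 (49 UMIs in 470 cells). It scored highest for fibroblast markers and had 28 cells on Day 14. As it stayed unnamed, its UMIs are not in the class levels above. Fibroblast-like cluster 1, led by *Akr1c18*, *Efhd1* and *Bmp3*, held 0.0915 and 0.575 CPM on Days 7 and 14 (2 and 7 UMIs). Summed pericyte markers were 248, 127 and 175 CPM in fibroblast-like cells on the 3 days, and their part in the *Heyl* level was not tested.

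*Hey1*, which codes for a repressor known in arterial endothelium, had 1, 38 and 45 UMIs in endothelial-like cells of the 3 libraries, or 4.88, 21.1 and 31.1 CPM. The Day 14 and Day 7 levels could not be told apart (log2 ratio 0.56, -0.09 to 1.23). Sub-cluster 0 held 35.9 and 59.2 CPM on Days 7 and 14, above the other endothelial-like cells by log2 ratios of 1.54 (0.53 to 2.61) and 1.65 (0.74 to 2.58). *Hey1* was next in mesenchymal-like cells (14.3 CPM on Day 14) and pericyte-like cells (7.52 and 10.96 CPM), whose intervals overlap. Fibroblast-like cells held 0.802, 0.624 and 1.49 CPM, with a log2 ratio of Day 14 over Day 7 of 1.26 (0.70 to 1.85). Their *Dll1*, at 0.652, 0.572 and 1.36 CPM, had a ratio of 1.25 (0.67 to 1.87), and fibroblast-like cluster 9, led by *Wfdc12*, *Gal* and *Igfbp2* and present mainly on Day 14 (35 and 1431 cells), held both genes highest among the fibroblast-like clusters of that day, at 3.14 CPM for *Hey1* and 4.40 for *Dll1*.

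*Hes1*, which codes for a repressor that also answers to signals other than Notch, was found in all structural classes. Fibroblast-like cells of the 3 libraries held it at 138 (133 to 143), 192 (188 to 195) and 137 CPM (134 to 140). For the class, Day 7 was the high point and Days 3 and 14 could not be told apart (log2 ratio -0.01, -0.07 to 0.05). The libraries differed in their clusters. Cluster 15 supplied 362 out of 407 fibroblast-like cells in the Day 3 library, where cluster 1 supplied 11. The place of Day 3 in this order is therefore read for the class and not within clusters. Cluster 15 itself had 446 cells on Day 7 and held 148 CPM there, against 192 CPM for the class. The part of the change of clusters in the class order was not tested. For the class, the log2 ratio of Day 14 over Day 7 was -0.49 (-0.53 to -0.45). Cluster 1 held the highest level, 282 CPM on Day 7 and 206 on Day 14, with *Notch1* at 2.29 and 1.64 CPM and *Notch2* at 41.2 and 57.8. This cluster made up 2241 of 5419 fibroblast-like cells on Day 7 and 1228 of 6623 on Day 14. The Day 14 level lay below that of Day 7 without overlap of intervals in cluster 1 and in cluster 0 (129 against 153 CPM), and the intervals overlapped in cluster 7 (101 against 130), cluster 15 (140 against 148) and cluster 9 (101.4 against 144, from 1431 and 35 cells). The unnamed fibroblast-marker cluster 20 held 56.2 CPM on Day 7.

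In endothelial-like cells the levels of *Hes1* were 234 (13 cells), 189 (170 to 210) and 266 CPM (240 to 294), with a log2 ratio of Day 14 over Day 7 of 0.49 (0.28 to 0.71). This direction rested on the lymphatic cluster, where *Hes1* was 223 CPM on Day 7 and 487 on Day 14. Its cells lay mostly in different sub-clusters in the 2 libraries: *Hes1* was 157 CPM in the 29 cells of lymphatic-like sub-cluster 5 on Day 7, and 636 CPM (30 UMIs in 15 cells) and 547 CPM in lymphatic-like sub-cluster 3 on Days 7 and 14, so it was not higher on Day 14 within the latter. Without that cluster the levels were 177 and 148 CPM and the log2 ratio was -0.26 (-0.58 to 0.04). On Day 14 sub-cluster 3 held 221 UMIs of *Hes1* in 42 cells and venous-like sub-cluster 1 held 55.2 CPM (14 UMIs in 44 cells). In pericyte-like cells *Hes1* stood at 249, 121 and 161 CPM, with a log2 ratio of Day 14 over Day 7 of 0.41 (0.11 to 0.71) that was 0.30 (-0.02 to 0.62) without sub-cluster 2, the opposite sign to that of *Heyl* for the class as a whole. Within sub-cluster 1 the signs were not opposite: *Hes1* was 129 CPM on Day 7 and 310 on Day 14 there, beside 82.1 and 88.6 CPM of *Heyl*. Sub-cluster 3, led by *2610306M01Rik*, *Kit* and *Slco2a1*, held 374 CPM on Day 14 and sub-cluster 0 held 86.7.

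In macrophage-like cells *Hes1* was 11.8, 25.7 and 25.04 CPM in the 3 libraries, with a log2 ratio of Day 7 over Day 3 of 1.12 (0.86 to 1.39). The summed level of the 8 fibroblast markers in these cells was 420, 3829 and 5568 CPM on the same days, low on Day 3 as *Hes1* was, and their part in the *Hes1* level was not tested. In neutrophil-like cells both were also lower on Day 3 than on Day 7: *Hes1* was 3.39 CPM (4 UMIs) and 16.7 (22 UMIs) on Days 3 and 7, and the fibroblast markers 827 and 10266 CPM. Macrophage-like cluster 4, led by *Cx3cr1*, *Ly6c2* and *Gpr141*, held the highest *Hes1*, at 26.6, 39.3 and 81.1 CPM.

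The other Notch pathway genes were read as a list of 55: further ligands, sugar transferases, proteases, nuclear partners, ligand endocytosis genes, inhibitors and further targets. In endothelial-like cells 40 of them were tested between Days 7 and 14, of which 3 were higher (7.5%, against 5.84% of all genes) and 3 lower (7.5%, against 11.4%). Their median log2 ratio was -0.04, against -0.18 for all genes. *Dtx1*, which codes for a ubiquitin ligase of the Notch receptor, was 6.10 CPM on Day 7 (11 UMIs) and 61.6 on Day 14 (89 UMIs), a log2 ratio of 3.34 (2.43 to 4.39), and it was among the leading genes of lymphatic-like sub-cluster 3. The other higher ones were *Psenen*, which codes for a gamma-secretase subunit, at a log2 ratio of 1.04 (0.79 to 1.30), and the target gene *Myc* at 1.47 (1.16 to 1.80). The sugar transferase genes *Pofut1* and *Poglut1*, whose enzymes put sugars on the receptor, had log2 ratios of -1.10 (-1.95 to -0.32) and -1.15 (-1.93 to -0.43), and *Neurl1b*, a ubiquitin ligase gene of ligand uptake, had -1.83 (-3.06 to -0.77).

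In pericyte-like cells 38 of the list were tested, with 1 higher (*Myc*, log2 ratio 1.39, 1.11 to 1.69), where 7.42% of all genes were, and 3 lower, where 14.6% were. The lower ones were *Adam10*, the protease gene for the first cut of the receptor after ligand binding (-1.06, -1.43 to -0.70), *Aph1a*, which codes for a gamma-secretase subunit (-1.09, -1.61 to -0.59), and the cell cycle gene *Ccnd1* (-1.55, -1.85 to -1.25). In macrophage-like cells 46 were tested between Days 3 and 7, with 4 higher, against 12.9% of all genes, and 4 lower, against 4.81%. The higher ones on Day 7 were *Dlk1*, *Neurl1b*, *Numbl* and *Gata2*, and the lower ones *Dner*, *Lfng*, *Maml1* and *Cd44*. *Lfng*, which codes for a sugar transferase that tunes which ligand a receptor answers to, was 158, 63.0 and 67.8 CPM on Days 3, 7 and 14 in those cells. *Rbpj* was 465 CPM on Day 7 and 475 on Day 14 there, and the target gene *Cd44* was 1406, 583 and 663 CPM on the 3 days. In fibroblast-like cells 49 were tested between Days 7 and 14, with 4 higher, against 7.6% of all genes, and 4 lower, against 9.85%. The higher ones were *Jag2*, *Dner*, *Nrarp* and *Ccnd1*. The cell cycle gene *Ccnd1* was 19.5 CPM on Day 7 and 51.5 on Day 14 there (log2 ratio 1.40, 1.30 to 1.496), and the ligand gene *Jag2* was 0.0867 and 0.402 CPM (5 and 28 UMIs). Of the lower ones, *Neurl3* was 7.04 and 3.05 CPM (-1.21, -1.45 to -0.97), and *Lfng*, *Neurl1a* and *Il2ra* were each under 2 CPM. The atypical ligand gene *Dlk1* was 0.251 CPM in fibroblast-like cells on Day 3 (5 UMIs), 56.7 on Day 7 (3273 UMIs) and 56.7 on Day 14 (3948 UMIs). In epithelial-like cells 43 were tested, with 6 in each direction, where 11.2% of all genes were higher and 11.7% lower.

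The genes whose levels were most like those of a member were found over 36 sums of a class, or of a single unnamed cluster, in a library, by Pearson's r of log2(CPM + 1), among 15785 genes with at least 50 UMIs. These sums share libraries, depth and classes, so r is a description. For *Notch3* they were *Tmem35a* (r = 0.86) and *Ano1* (0.85), and the r between *Notch3* and *Heyl* was 0.78. For *Notch4* they were *Vwf* (0.81) and *Enpp6* (0.79), and for *Dll4* *Gm14207* (0.89) and *Nxpe2* (0.78). *Gm14207* overlaps *Dll4* on the opposite strand. For *Notch1* they were *Tet3* (0.79) and *B3gnt2* (0.77), and for *Notch2* *Frrs1* and *Wwp2* (0.80 each). For *Jag1* they were *Dstn* (0.83) and *Pip4p2* (0.80), and for *Dll1* *Eva1a* (0.82) and *Slc1a1* (0.81). For *Hes1* they were *Nfia* (0.89) and *Tnks1bp1* (0.86), for *Hey1* *Ablim3* (0.77) and *Mycn* (0.74), and for *Heyl* *Gjc1* (0.84) and *Klhl23* (0.81). Between members, r was 0.68 for *Jag1* with *Hes1* and 0.46 for *Dll4* with *Notch4*, and it was 0.12 for *Notch1* with *Dll4*.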

How the data were processed

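Single-cell RNA was measured in 3 libraries of mouse skin wounds, 1 for each of Days 3, 7 and 14 post injury. The authors deposited raw UMI counts per gene and barcode, made with Cell Ranger 6.0.0 on mm10 per the labels. The series text calls the injury incisional and the study's methods call it excisional. The members and all lists were chosen with earlier results of these data known.

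From the deposited counts, barcodes were kept from 200 genes and 500 UMIs upwards if mitochondrial genes gave 10% of UMIs or less. Barcodes with the highest share of simulated doublets among their 50 neighbours were removed (92, 1978 and 962 on Days 3, 7 and 14, or 0.5 times the number expected at 0.8% per 1000 barcodes). Cells were clustered jointly on 2000 variable genes and 30 principal components (Leiden, resolution 1), without the members, other pathway genes, mitochondrial or ribosomal genes, and without batch correction. A marker counted if found in at least 10% of cells, with log2(CPM + 1) at least 1 above the lower quartile of clusters. Among classes with 3 or more counted markers, a cluster took the name of that with the highest mean excess over its marker list. It stayed unnamed where a second class came close, or another class led its 10 leading genes. Low UMIs, with no marker of the class among those genes, also left a cluster unnamed (cluster 13). The mesenchymal list followed the study's table. Sub-clusters were named by like steps, with each marker's level set against the rest of the class. Endothelial-, pericyte- and epithelial-like cells were clustered again (1000 genes, 15 components, resolution 0.6).

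The UMIs of a gene were added up over the cells of a class in a library and scaled to 1000000 UMIs of all genes (CPM). A fold of at least 2 was called over genes with at least 20 UMIs in both libraries together and classes with at least 20 cells in each. Shares of cells were taken before and after thinning to 1000 UMIs, with exact binomial (Clopper-Pearson) intervals, and a count of 0 was given a limit of 3 counts. The ratio code was tested on simulated counts. Named genes were the 10 members, pathway genes past 2-fold in a given contrast or among the 3 highest in a class, the 2 genes of the most similar pattern, and leading genes of named clusters. Overlapping genes were those of GENCODE vM21. Alternatives covered filters, doublets, clustering, class rule, scaling and cell weight. Python 3.11.15, numpy 2.4.6, scipy 1.17.1, scikit-learn 1.9.0, igraph 0.11.9 and leidenalg 0.10.2 were used.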

Additional observations from a re-analysis of the deposited data

How the results depend on the processing

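No paired analysis was possible because each day is 1 library and the labels carry no replicate numbers. Among the alternative values of the 15 ratios that the design named, 166 stayed within their counting error, 14 moved beyond it and 1 reversed in sign beyond it. Among those of the other 68 ratios, 747 stayed within their counting error and 39 moved beyond it, and none reversed in sign beyond it. Signs could change within counting error. Without epithelial-like sub-cluster 6, *Notch1* in epithelial-like cells (Day 14 over Day 7) went from 0.26 to -0.02 and *Notch3* from 0.20 to -0.04. Leaving out the lymphatic cluster, chosen after seeing the data, turned the log2 ratio of *Hes1* in endothelial-like cells (Day 14 over Day 7) from 0.49 to -0.26. The mean of each cell's own CPM moved the same ratio of *Jag1* in endothelial-like cells to -1.35, of *Dll4* to 0.94, of *Notch1* in fibroblast-like cells to 0.71 and of *Notch3* in pericyte-like cells to 0.18. Scaling by the median of ratios moved *Notch2* in fibroblast-like cells to 0.31, *Hes1* in fibroblast-like cells to -0.31 and *Notch3* in pericyte-like cells to 0.51. Class per cell from its own markers moved *Notch1* in fibroblast-like cells to 0.018, *Hes1* there to -0.39 and *Hes1* in macrophage-like cells to -0.41. *Hes1* in fibroblast-like cells was -0.39 at clustering resolution 0.5, -0.64 at resolution 2 and -0.39 with the unnamed fibroblast-marker clusters added (also chosen after seeing the data). Leaving out pericyte-like sub-cluster 2, chosen after seeing the data, moved *Notch3* in pericyte-like cells to 0.16, while leaving out sub-cluster 4 kept each ratio there within its counting error. Leaving out epithelial-like sub-cluster 6 moved *Jag1* in epithelial-like cells to -0.40. The cause of the other moves was not tested, apart from the reversal, which came from leaving out 1 cluster. With 1 UMI in each library as the only minimum, the genes called in endothelial-like cells (Day 14 over Day 7) were 1265 in place of 550 higher and 1877 in place of 1078 lower, and in pericyte-like cells 1118 in place of 669 and 2542 in place of 1319. In fibroblast-like cells 1875 in place of 1165 were higher and 2278 in place of 1510 lower on Day 14 than on Day 7, and 2491 in place of 1537 lower on Day 7 than on Day 3. In macrophage-like cells 2054 in place of 718 were higher on Day 14 than on Day 7, and 1249 in place of 601 lower on Day 7 than on Day 3. Of the levels in CPM, 84 moved beyond their counting error and 136 stayed when scaled without the 50 most abundant genes, 25 moved and 195 stayed as the mean of each cell's CPM, 19 moved and 201 stayed with class per cell from its own markers, and at most 11 moved under each other alternative. Of the thinned shares, 88 moved beyond it and 132 stayed at 500 UMIs a cell, and 83 moved and 137 stayed at 2000. Leaving out barcodes shared between libraries, also chosen after seeing the data, kept all 83 ratios within their counting error.

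Depth limits the shares of cells: at 1000 UMIs a cell, the thinned shares of *Notch4*, *Heyl* and *Hey1* rest on a handful of cells. Levels on Day 3 in the vessel wall rest on 13 and 10 cells. Intervals leave out the spread between animals, which 1 library a day cannot show.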

Other observations

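Some small groups of cells also carried a member, given as values only. The unnamed cluster 10, led by *Cd209a*, *Ffar2* and *Klrb1b*, held *Notch4* at 1.54, 2.80 and 6.17 CPM on Days 3, 7 and 14 (2, 7 and 12 UMIs), 7.76-fold the rest of its library on Day 14. The unnamed cluster 18, led by *Ctla4*, *Icos* and *Il2rb*, held *Notch1* at 70.1 CPM on Day 7 (49 UMIs). Cluster 25 held *Notch3* at 15.1 and 18.7 CPM on Days 7 and 14 (4 and 3 UMIs), with all 9 pericyte markers at 0 on Day 7.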
